A study of Mus musculus with 30 samples.

Results

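The liver transcripts of the proteasome were followed across 5 diets in the mouse. The genes were chosen by name: every gene of the count table whose symbol begins with Psma, Psmb, Psmc, Psmd, Psme, Psmf or Psmg and a digit, which gave 48 of 14173 genes. They comprise 8 alpha subunits and 7 standard beta subunits of the 20S core, 3 immunoproteasome beta subunits, 9 subunits of the base and 8 of the lid of the 19S cap, 6 genes for activators and an inhibitor, and 7 assembly chaperones. Messenger RNA from whole liver was read from its 3′ end, in 30 livers of male C57BL6/J mice, 6 per diet. The mice were 6 months old, had eaten their diet for 12 weeks and were fasted for 4 h. The Cas-20% diet held 20% casein with 0.57 g methionine and 0.41 g cysteine per 100 g, and the Cas-5% diet 5% casein with 0.15 g and 0.1 g. The Soy-20% diet held 20% soy protein with 0.22 g of each, the Soy-20% + SAA diet the same soy protein brought to 0.58 g and 0.41 g with added sulfur amino acids, and the Soy-10% diet 11.5% soy protein with 0.13 g of each. The restricted diets were thus close in sulfur amino acids. They differ from each other in protein source and protein content, and slightly in methionine and cysteine, which cannot be told apart between them. In whole liver, fewer cells of a type and less RNA per cell cannot be told apart either.

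The proteasome is the protease complex that removes ubiquitin-tagged proteins. Its 20S core is a barrel of alpha rings around beta rings, and Psmb6, Psmb7 and Psmb5 encode the beta subunits with proteolytic activity. In cells exposed to interferon these are replaced by Psmb9, Psmb10 and Psmb8, the immunoproteasome subunits that favour peptides for antigen presentation. The 19S cap recognises the ubiquitin chain, removes it through the deubiquitinase Psmd14 and unfolds the substrate with the ATPases Psmc1 to Psmc6. The PA28 activators (Psme1, Psme2, Psme3) and PA200 (Psme4) open the core without ubiquitin, Psmf1 (PI31) was described as an inhibitor, and the PAC chaperones Psmg1 to Psmg4 with Psmd5, Psmd9 and Psmd10 guide assembly. The factor Nfe2l1 is known to raise the subunit genes together when proteasome activity falls short.

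Sequences are given first, for promoters of some of these genes. RefSeq promoter windows, 250 bases before to 50 after the start on GRCm38.p6, were available for 40 of the 48 genes. Psmg2, Psmd3 and Psmc3, which passed a test in the casein or soy comparison, had no window. Psmb9 is shown because its transcript moved most in the casein comparison. Its window at chr17:34187281-34187580, on the minus strand, runs into the neighbouring gene Tap1, a peptide transporter of antigen presentation transcribed the other way, and the 28 capitals mark the bases that lie inside Tap1.

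Psmb9: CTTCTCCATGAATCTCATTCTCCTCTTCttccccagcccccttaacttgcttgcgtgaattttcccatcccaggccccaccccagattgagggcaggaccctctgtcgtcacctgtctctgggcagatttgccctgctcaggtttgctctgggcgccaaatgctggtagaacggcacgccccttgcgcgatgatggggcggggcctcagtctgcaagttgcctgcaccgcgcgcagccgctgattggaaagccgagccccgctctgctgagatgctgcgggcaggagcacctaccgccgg

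The core letters of the antioxidant response element, written TGACNNNGC and TGAGNNNGC, were searched on both strands, since Nfe2l1 binds sites of this kind. TGACNNNGC stood in 6 of the 40 member promoters (15%) and in 14.0% of all 27025 genes with a window. TGAGNNNGC stood in 12 (30.0%) against 19.8%, and 16 (40.0%) held at least 1 of them against 30.8%. Members that passed a test in the casein or soy comparison and held a match are shown with the match in capitals, because they moved in the comparisons described further on.

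Psmd9, chr5:123228149-123228177: atctagccggTGACCCCGCccacttccaa

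Psmd13, chr7:140882385-140882413: gtgccggaagTGAGCGAGCacttccgtgc

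Psma4, chr9:54950722-54950750: gtgggcagacTGAGCCCGCcccagcactg

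Psmb3, chr11:97703414-97703442: gcgttgacccTGAGAAAGCcagagccggt

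Psmd5, chr2:34871097-34871125: actaagagacTGAGACCGCccaggggatc

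The Psmd5 match lay on the strand opposite to the gene and the others on the gene's strand, and Psma4 held another match that is not shown. An ETS-type core, CCGGAAG, stood in 14 member promoters (35.0%) and in 9.93% of all genes. It lies in the flank of the Psmd13 window shown, just before the capitals. The core of the interferon-stimulated response element stood in 5 (12.5%) against 3.99%, and Psmb9 was not among them. Of the members shown, Psma4 and Psmd5 were called higher and Psmd9, Psmd13 and Psmb3 lower. Other called members, such as Psmb9, Psmd2 and Psmc1, held neither TGACNNNGC nor TGAGNNNGC. A match is a description of letters in these windows, and none of the motifs was tested for binding or for a link to the diets.

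Library totals ran from 7694015 to 14565542 counts. Values are given as normalized counts, that is, the authors' counts divided by a size factor for each library, and fold changes come from edgeR's quasi-likelihood test on the raw counts with Benjamini-Hochberg adjustment over all genes tested. Summed hepatocyte markers reached 737426 to 962641 normalized counts in every liver, as the tissue label has it. Soy-20% + SAA livers 3 to 6 stood apart: the slope of their expression on the GC content of the transcript 3′ end was 0.061 to 0.21 log2 units per 10 points of GC, against -0.066 to 0.031 in the other 26 livers. Results that rest on these 4 livers are given with and without them, except for cell type markers, given only with them. Pancreatic acinar transcripts were found in Soy-10% liver 4 (5087 summed normalized counts, against at most 3.22 in the 24 livers on other diets). Psma8, the testis form of an alpha subunit, and Psme2b, a near copy of Psme2, stayed at mean normalized counts of 6.05 to 11.6 in every diet, near the filter on low counts, and reads of Psme2b and Psme2 may have been exchanged in counting.

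**Figure D1:**
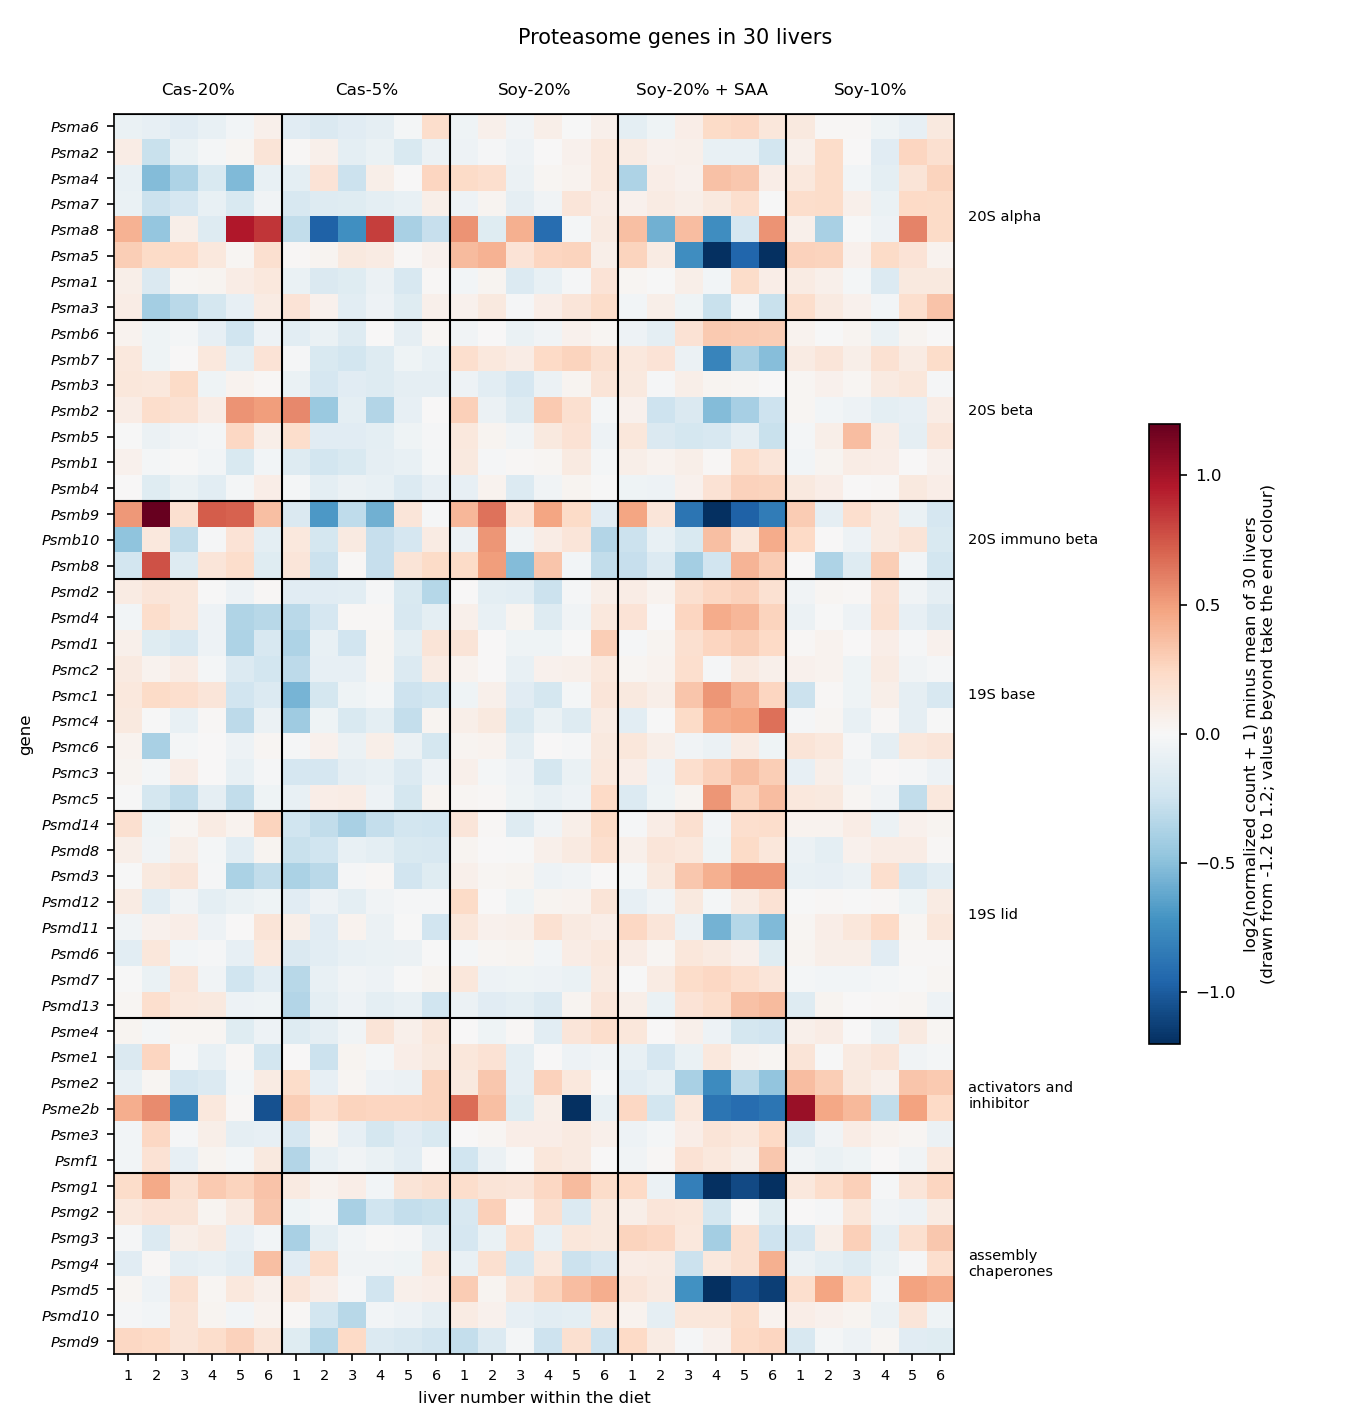
Proteasome genes (rows, by class) in the 30 livers (columns, by diet), as log2(normalized count + 1) minus the gene's mean over 30 livers, drawn from -1.2 to 1.2. Soy-20% + SAA livers 3 to 6 form the most distinct columns, with Psmg1, Psmd5, Psmb9 and Psma5 low and Psmd3, Psmc1 and Psmc4 high.

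Casein restriction was compared first. In Cas-5% against Cas-20% livers 8 of 47 members tested passed, 1 higher and 7 lower, or 17.0% against the 24.9% of all 12076 genes called (11.6% higher and 13.3% lower). The members that fell were the immunoproteasome subunit Psmb9, the standard beta subunit Psmb3, the cap subunits Psmd2, Psmd13 and Psmd14, and the assembly chaperones Psmg2 and Psmd9, while the alpha subunit Psma4 rose. The median log2 fold change was -0.073 over the members and 0.016 over all genes, and the median size without regard to sign was 0.11 against 0.19. By class, 1 of 7 alpha, 1 of 7 beta, 1 of 3 immunoproteasome, 1 of 9 base, 2 of 8 lid and 2 of 7 chaperone genes passed, and none of the 6 activator and inhibitor genes did.

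Psmb9 (chromosome 17, 34181987 to 34187764, GRCm38) had the largest log2 fold change of the members called. Its normalized counts ran from 299 to 620.0 in Cas-20% livers (median 402) and from 162 to 289 in Cas-5% livers (median 221), with no overlap. The log2 fold change was -0.89 ± 0.17 (SE, n = 6 per diet, edgeR adjusted p = 0.00087). Psmb9 passed in each of the 20 alternatives to the main test, with log2 fold changes of -0.98 to -0.70 and adjusted p of 4.4e-06 to 0.0067.

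The other immunoproteasome subunits did not move with it. Psmb8 averaged 428 ± 122 (SD, n = 6) in Cas-20% and 392 ± 57.6 in Cas-5% livers, with a log2 fold change of -0.11 ± 0.15 and an edgeR adjusted p of 0.63. Psmb10 averaged 349 ± 58.4 and 359 ± 47.0, with 0.05 ± 0.11 and an edgeR adjusted p of 0.78. The groups overlapped for both, and Cas-20% liver 2 held the highest count of Psmb8 (658) and of Psmb9 (620.0) in its diet.

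Of the standard counterparts, Psmb6, which Psmb9 replaces, averaged 1270 ± 79.7 in Cas-20% and 1268 ± 63.6 in Cas-5% livers (log2 0.01 ± 0.06, edgeR adjusted p = 0.91). The log2 ratio of Psmb9 to Psmb6 counts had a median of -1.69 in Cas-20% livers (-2.13 to -1.05) and of -2.45 in Cas-5% livers (-2.96 to -2.09), so the diets overlapped slightly. This ratio of 3′ counts follows the pair across livers and is not a ratio of molecules. Psmb7 (log2 -0.15 ± 0.07, edgeR adjusted p = 0.12) and Psmb5 (-0.05 ± 0.08, 0.69) did not pass. Psmb7 shares 405 exon bases with the 3′ end of Nek6 on the other strand, and whether the counting used strand is not given in the sources used here, so its counts are uncertain.

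**Figure D2:**
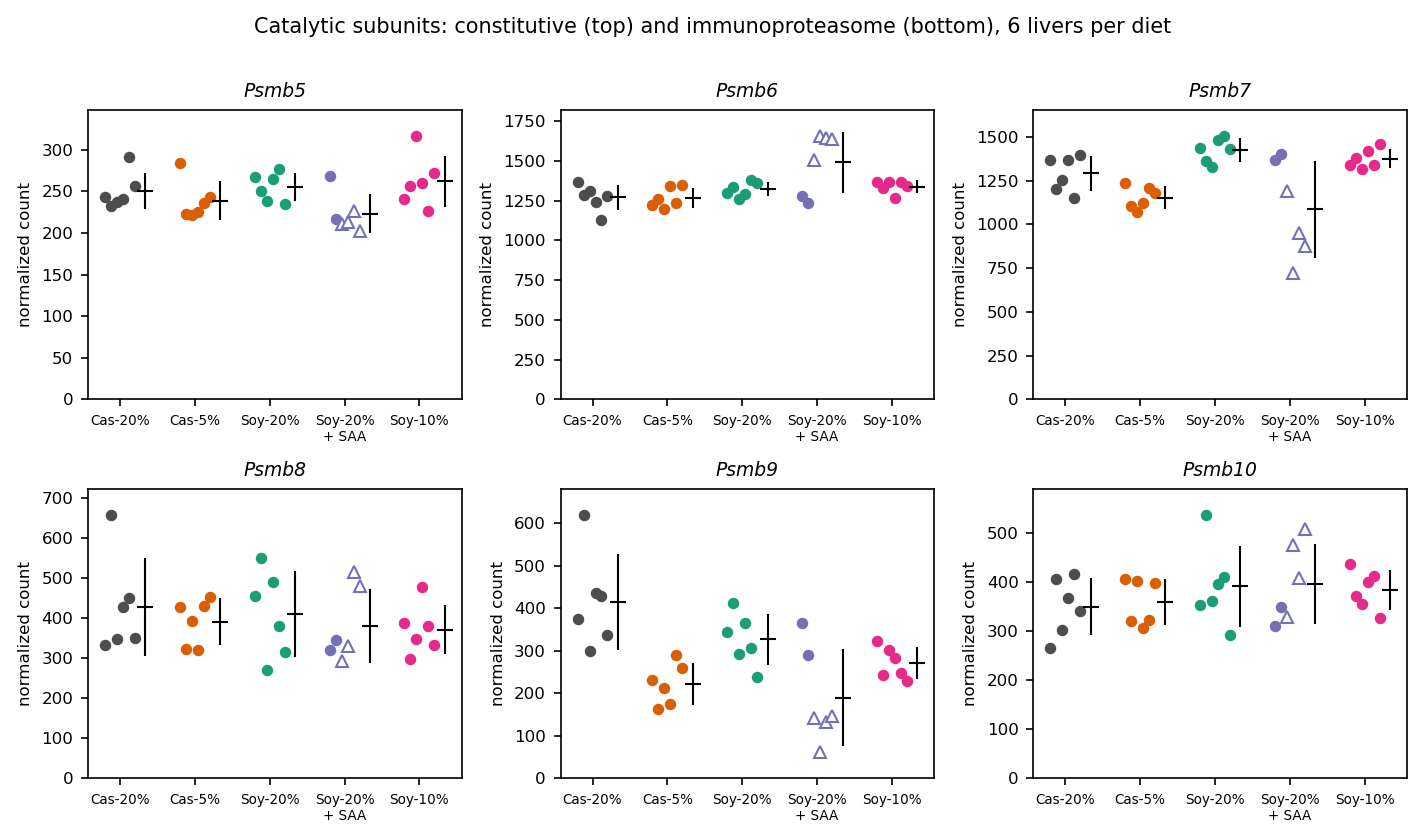
Normalized counts per liver of the 3 catalytic beta subunits (top) and their immunoproteasome counterparts (bottom) in 5 diets, with the mean ± SD as a bar and Soy-20% + SAA livers 3 to 6 as open triangles. Psmb9 is lower in every Cas-5% liver (162 to 289) than in every Cas-20% liver (299 to 620.0), while Psmb6 averages 1270 and 1268.

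Leukocyte markers did not pass with Psmb9. None of the 6 tested of 8 leukocyte and antigen-presenting markers was called, though the 6 had a median log2 fold change of -0.25, in the direction of Psmb9. The summed level of the 8 ran from 1514 to 5163 normalized counts in Cas-20% and from 1468 to 3022 in Cas-5% livers. None of 6 Kupffer cell markers was called (1788 to 2974 against 1768 to 2838). The T cell marker Cd3e had a median of 4 raw counts over the 30 livers. Of erythroid markers 4 of 5 were lower in Cas-5% livers, with sums of 11503 to 19812 against 15728 to 34944, and 2 of 5 stellate markers, Dcn and Reln, were higher, with sums of 3776 to 5133 against 3255 to 4101. Of 5 endothelial markers Kdr was higher (sums of 2577 to 2925 against 2312 to 2714), and of 6 hepatocyte markers Hnf4a and Alb were higher and Cps1 and Serpina1c lower. The part of these cell types in the results was not tested. Of 12 other antigen-processing genes 2 were lower, Tapbp (log2 -0.33 ± 0.10, edgeR adjusted p = 0.023), which loads peptides on class I molecules, and B2m (-0.28 ± 0.09, 0.030), their light chain. Tap1, which shares the Psmb9 promoter region shown above, had -0.37 with an adjusted p of 0.078. Neither Tapbp nor B2m passed with the library GC slope as a covariate or when libraries were scaled by their totals.

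In the 19S cap, Psmd14, the deubiquitinase of the lid (chromosome 2, 61711694 to 61800376), gave the smallest adjusted p of the family. Its counts ran from 766 to 953 in Cas-20% livers (median 833) and from 604 to 681 in Cas-5% livers (median 661), with no overlap. The log2 fold change was -0.36 ± 0.06 (SE, n = 6 per diet, edgeR adjusted p = 0.00055), and every one of 12 fits without 1 liver called it. Psmd13, another lid subunit, ran from 953 to 1145 in Cas-20% and from 777 to 951 in Cas-5% livers, with no overlap but a narrow gap. It gave -0.21 ± 0.07 (edgeR adjusted p = 0.039) and passed in 5 of 12 fits without 1 liver. Psmd2, a scaffold of the base, gave -0.20 ± 0.07 (edgeR adjusted p = 0.036) with overlapping groups (1153 to 1445 in Cas-5%, 1404 to 1619.9 in Cas-20%) and also passed in 5 of 12.

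Among the assembly chaperones, Psmg2 ran from 202 to 247 in Cas-20% livers (median 219) and from 150.4 to 195 in Cas-5% livers (median 166), with no overlap. Its log2 fold change was -0.35 ± 0.08 (SE, n = 6 per diet, edgeR adjusted p = 0.0043). Psmd9 ran from 354 to 383 in Cas-20% livers and from 250.5 to 373 in Cas-5% livers. Only Cas-5% liver 3 (373) reached the Cas-20% range, the other 5 lying at 286 or below. Psmd9 gave -0.33 ± 0.09 (edgeR adjusted p = 0.0087). Psmg1 also did not overlap between the diets (174 to 202.4 against 202.5 to 244) and missed the threshold at -0.20 ± 0.07 (edgeR adjusted p = 0.056).

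In the 20S core, the structural subunit Psmb3 ran from 1078 to 1310 in Cas-20% and from 972 to 1056 in Cas-5% livers, with no overlap (log2 -0.20 ± 0.06, edgeR adjusted p = 0.022). Psma4, an alpha ring subunit, ran the other way, from 991 to 1349 in Cas-20% livers (median 1185) and from 1198 to 1722 in Cas-5% livers (median 1475), and the groups overlapped. It gave 0.33 ± 0.10 (SE, n = 6 per diet, edgeR adjusted p = 0.022) and passed in 7 of 12 fits without 1 liver. Over the 5 diets the mean of Psma4 was lowest in Cas-20% livers, at 1177. It was 1466 in Cas-5%, 1532 in Soy-20%, 1542 in Soy-20% + SAA and 1548 in Soy-10% livers. In all, 6 members lay wholly lower in Cas-5% livers and none wholly higher, against 7.73% of all genes wholly lower and 5.14% wholly higher. The count of members called fell to 5 without Cas-20% liver 2 (23.3% of all genes called) or Cas-5% liver 2 (21.4%).

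The size of these changes is relative to the other liver genes. The 10 most abundant genes took 29.4 to 34.1% of reads in Cas-20% livers and 24.8 to 27.6% in Cas-5% livers. When libraries were scaled by their totals alone, a setting chosen after seeing the data, the median log2 fold change moved to 0.20 over all genes and to 0.10 over the members. Of 12076 genes, 3849 were then called higher and 812 lower. Under that scaling 11 members passed, 10 higher and 1 lower: Psmb9 remained lower, Psma4 remained higher, and Psmd14 had -0.18 (adjusted p = 0.052, over a range of 1.2e-06 to 0.052 in all alternatives). The members lay 0.091 below the median of all genes with totals and 0.092 below with the authors' size factors. With the GC slope of the library as a covariate, Psmb9, Psmd14, Psmg2 and Psmd9 stayed called and Psmb2 (-0.44) and Psmb7 (-0.19) were added, or 6 members beside 23.1% of all genes.

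**Figure D3:**
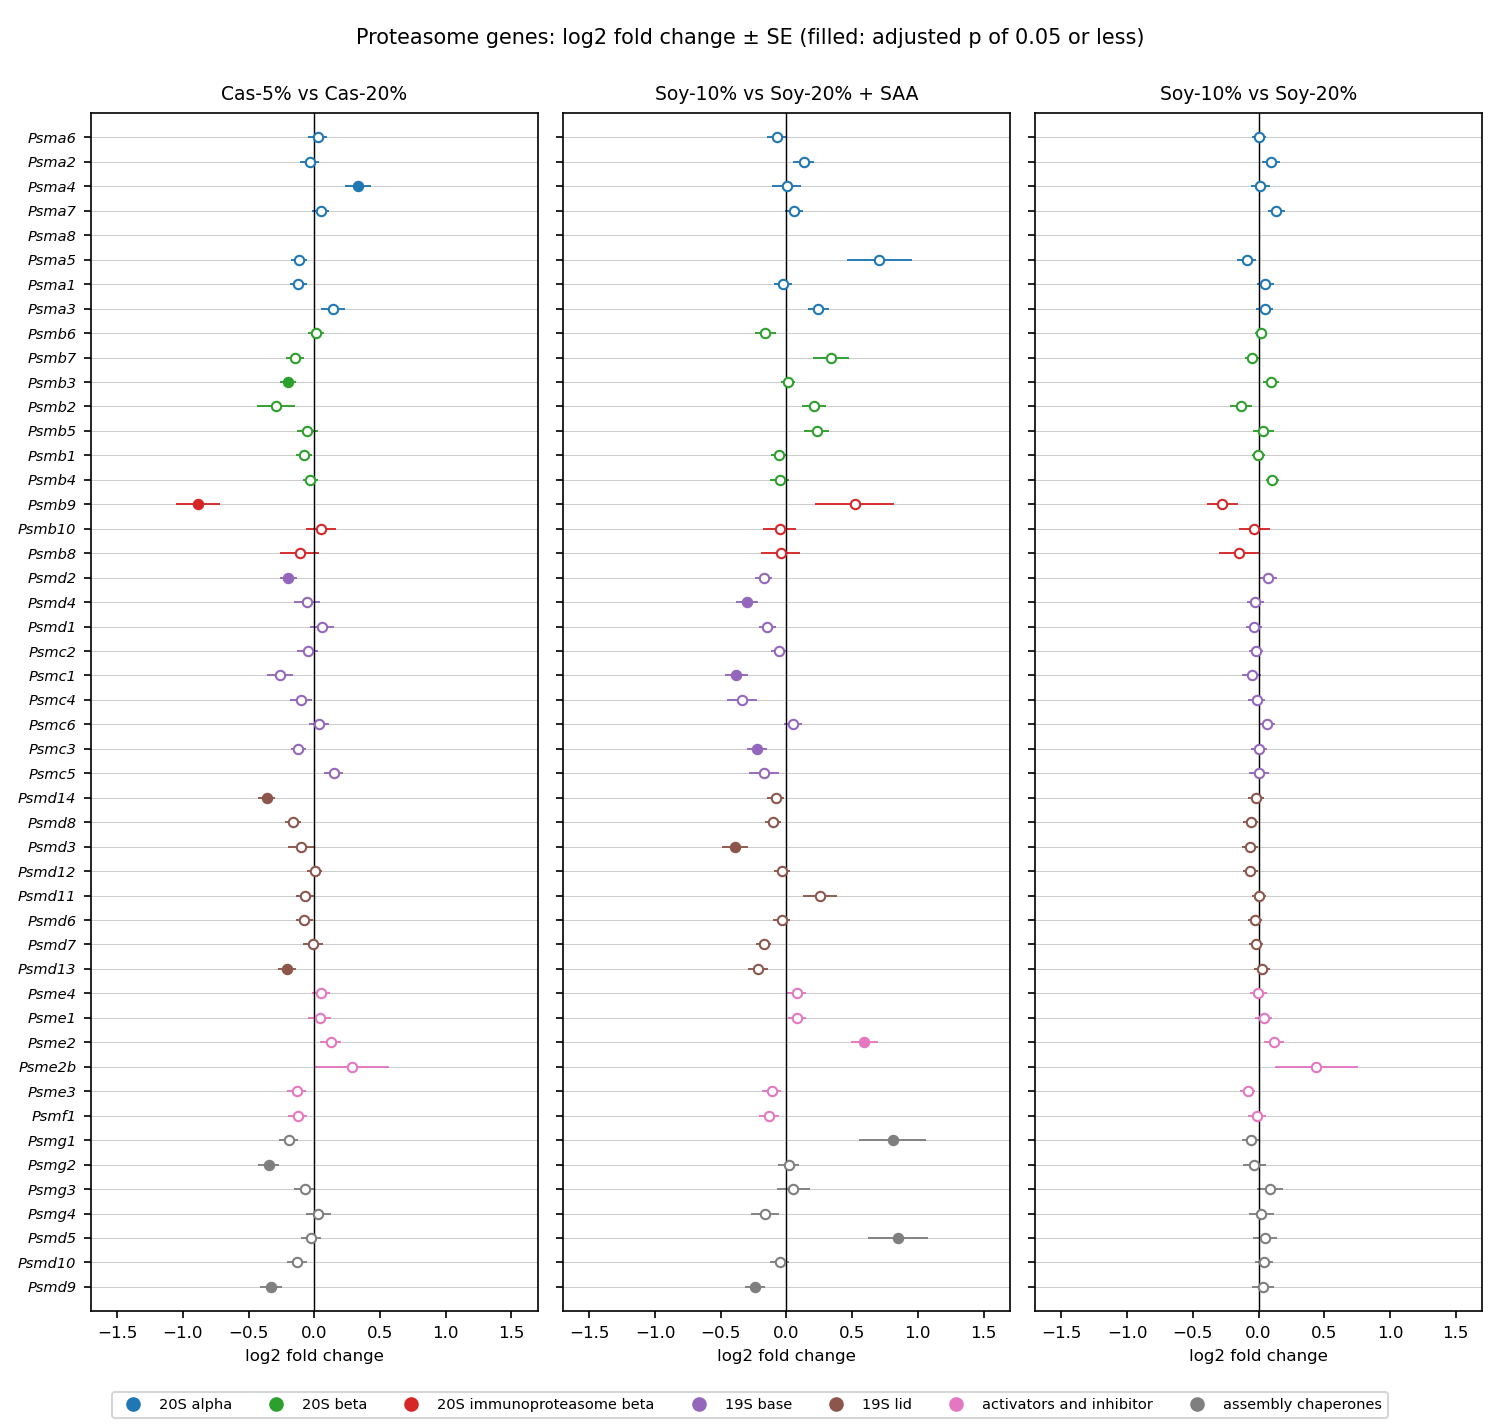
Log2 fold change ± SE of the proteasome genes, by class, in Cas-5% against Cas-20%, Soy-10% against Soy-20% + SAA and Soy-10% against Soy-20% livers, filled where the edgeR adjusted p was 0.05 or less. Most points lie near 0, 8 are filled in each of the first 2 panels, and none is filled in the last, where the median size was 0.040.

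The soy comparison of the study set Soy-10% against Soy-20% + SAA. There 8 of 46 members tested passed, 3 higher and 5 lower, or 17.4% against 17.0% of all 11983 genes (8.51% higher and 8.47% lower). The activator Psme2 and the assembly chaperones Psmg1 and Psmd5 were higher in Soy-10% livers, and the base subunits Psmc1, Psmc3 and Psmd4, the lid subunit Psmd3 and the chaperone Psmd9 were lower. No member of the 20S core passed. None of the 8 passed without Soy-20% + SAA livers 3 to 6, when 2 control livers remained (2.54% of all genes passed), and the size of 7 of them shrank. Psmd9 kept its size, at -0.26 without these livers. None passed either with the GC slope as a covariate (2.96%).

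The values per liver show the split of the Soy-20% + SAA diet. Psmg1, which encodes PAC1, a chaperone of alpha ring assembly, measured 209, 169, 99.7, 56.5, 83.0 and 70.2 normalized counts in Soy-20% + SAA livers 1 to 6, against 175 to 216 in Soy-10% livers. Only livers 3 to 6 lay below the Soy-10% range by a wide margin, with liver 2 just below it. The log2 fold change was 0.81 ± 0.25 (SE, n = 6 per diet, edgeR adjusted p = 0.041) with all livers and 0.07 ± 0.12 without livers 3 to 6. Psmd5, a chaperone of the cap base, measured 359, 350.0, 196, 139.9, 156 and 148 against 318 to 455 in Soy-10% livers. Livers 1 and 2 lay within the Soy-10% range and the other 4 below it. Its log2 fold change was 0.85 ± 0.23 (edgeR adjusted p = 0.022) with all livers and 0.18 ± 0.13 without livers 3 to 6.

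Psme2, the beta subunit of PA28, differed in every liver. It measured 460, 473, 382, 298, 401 and 362 in Soy-20% + SAA livers against 524 to 649 in Soy-10% livers, with no overlap also for livers 1 and 2. Wholly separate groups were found higher in Soy-10% for this 1 member and lower for 1, Psmc1, beside 2.90% and 3.31% of all genes. The log2 fold change was 0.59 ± 0.10 (SE, n = 6 per diet, edgeR adjusted p = 0.0027) with all livers and 0.35 ± 0.10 without livers 3 to 6, where it did not pass (adjusted p = 0.083, over a range of 7.6e-06 to 0.083 in all alternatives). Its partner Psme1 measured 1103 ± 88.4 and 1169 ± 72.7 (SD, n = 6), with 0.08 ± 0.07 and an edgeR adjusted p of 0.44. Psme1 and Psme2 form PA28 together, and only Psme2 passed; the difference between them was not tested.

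Of 17 cap subunits 4 were lower in Soy-10% livers (3 of 9 base and 1 of 8 lid) and none was higher. Beside them 8.47% of all genes were called lower and 8.51% higher. Psmc1, an ATPase of the base, ran from 1815 to 2286 in Soy-10% and from 2287 to 3145 in Soy-20% + SAA livers, a separation by less than 1 count between the closest livers. It gave -0.38 ± 0.09 (edgeR adjusted p = 0.011) with all livers and -0.18 without livers 3 to 6. Psmd3, a lid scaffold, measured 1265, 1393, 1611, 1727, 1837 and 1844 in Soy-20% + SAA livers against 1122 to 1473 in Soy-10% livers, of which liver 4, the liver with acinar transcripts, was the highest. It gave -0.39 ± 0.10 (edgeR adjusted p = 0.018) with all livers and -0.12 without livers 3 to 6. Psmd4, a ubiquitin receptor, gave -0.30 ± 0.08 (edgeR adjusted p = 0.026) with all livers and -0.13 without livers 3 to 6. Psmc3 gave -0.22 ± 0.07 (edgeR adjusted p = 0.049) and -0.04, and Psmd9 gave -0.24 ± 0.07 (0.037). The Psmc3 gene shares 97 exon bases with Slc39a13 on the other strand near its end. Psmd9 was the only member called in both the casein and the soy comparison, lower in each restricted diet than in the control used there. Without livers 3 to 6 its soy value stayed at -0.26 but did not pass (edgeR adjusted p = 0.16, over a range of 0.024 to 0.26 in all alternatives). Against the Soy-20% diet Psmd9 was not lower, with means of 299 ± 17.3 in Soy-10% and 292 ± 39.4 in Soy-20% livers (SD, n = 6).

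**Figure D4:**
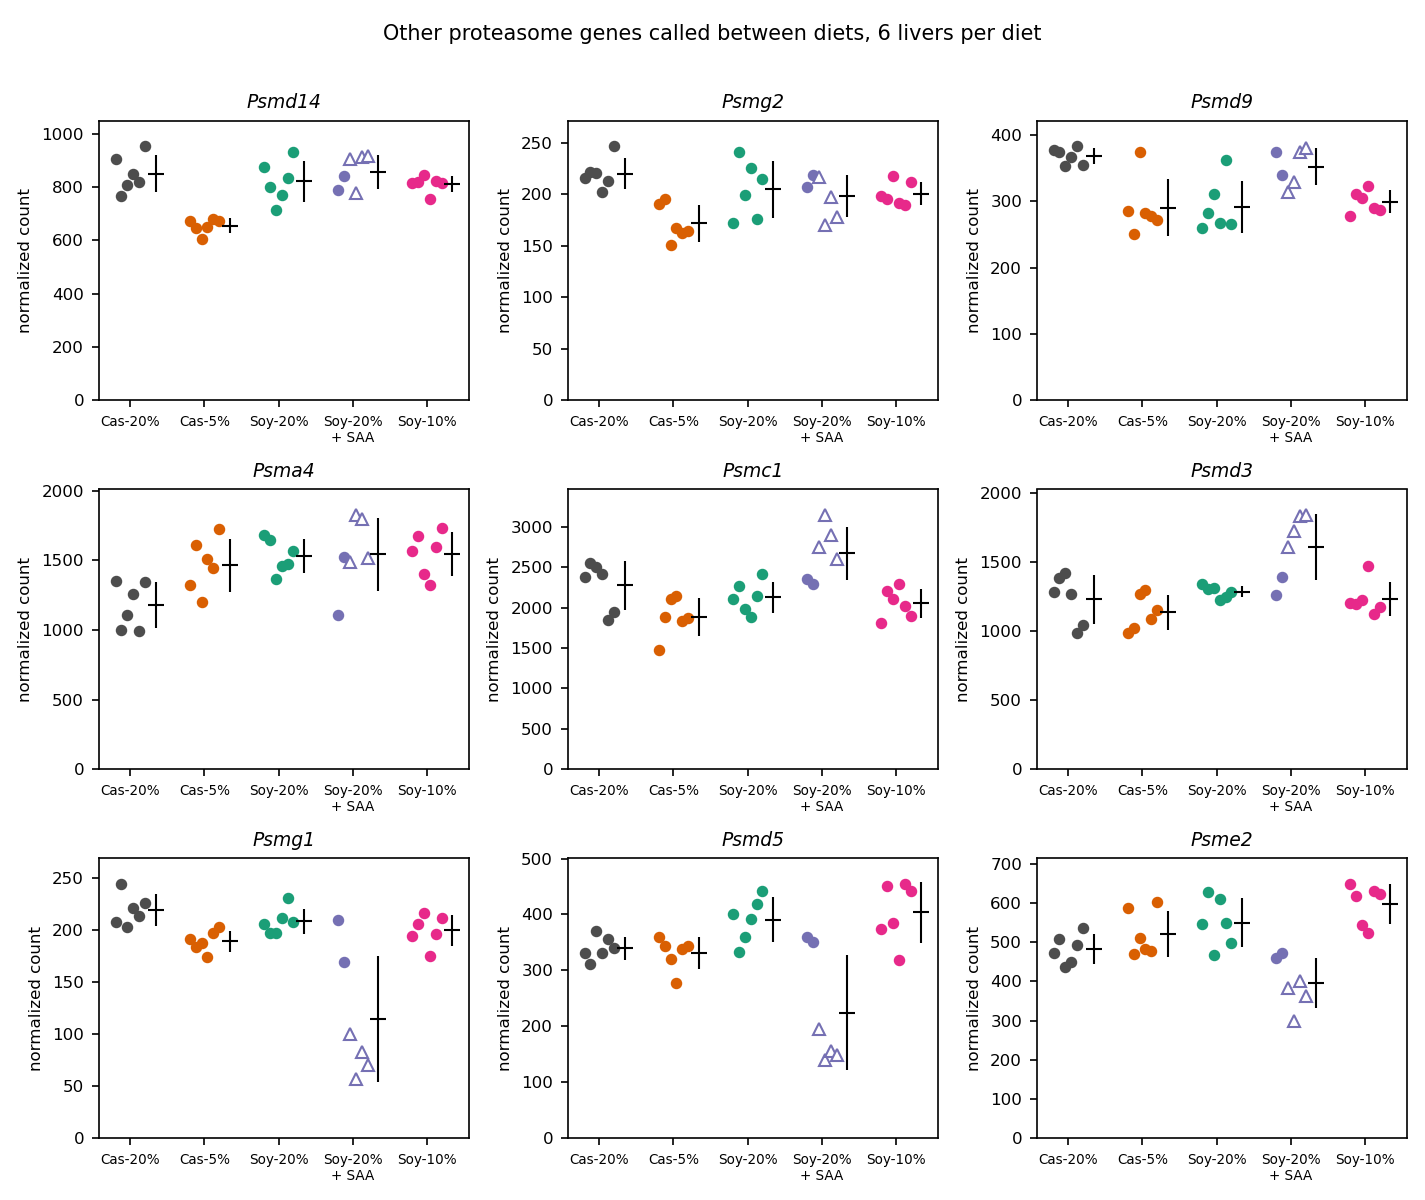
Normalized counts per liver of Psmd14, Psmg2, Psmd9, Psma4, Psmc1, Psmd3, Psmg1, Psmd5 and Psme2 in the 5 diets, with the mean ± SD as a bar and Soy-20% + SAA livers 3 to 6 as open triangles. The triangles lie apart from the other livers for Psmg1 (56.5 to 99.7), Psmd5 (139.9 to 196), Psmc1 and Psmd3, and Psmd14 is lowest in Cas-5% livers (604 to 681).

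The count of members called depended on single livers. Of the Soy-20% + SAA livers, it was 20 without liver 1 (25.8% of all genes called) and 15 without liver 2 (23.3%), and it was 5 without liver 4 (11.8%), 3 without liver 5 (10.1%) and 4 without liver 6 (10.1%). Leaving out Soy-10% liver 1, 3, 5 or 6 gave 4 members and liver 2 gave 5, beside 10.9 to 12.3% of all genes. Psmd3, Psmc1 and Psme2 were called in all 12 of these fits. Against the other 26 livers of the study, livers 3 to 6 lay below all for 5 members (Psma5, Psmb9, Psme2, Psmg1, Psmd5) and above all for 7 (Psmb6, Psmd2, Psmd4, Psmc1, Psmc4, Psmc3, Psmd3). That is 10.4% and 14.6% of the members, beside 5.45% and 1.62% of 12561 genes.

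The GC content of the last 200 bases of the transcript was set beside the fold changes. Across 46 members the correlation of 3′ GC with the Soy-10% against Soy-20% + SAA fold change was r = -0.26, and across 11916 genes it was -0.26 as well. In the casein comparison it was 0.08 across 47 members and -0.03 across 12009 genes. Genes of 1 library share its depth and base composition and are not independent replicates. Of the 5 members low in livers 3 to 6, Psma5 had 35.5% GC, Psmb9 and Psmg1 40.5%, Psme2 45.75% and Psmd5 49.5%. The 7 high ones ran from 43.0% (Psmd2) to 54.5% (Psmb6), so the sets overlapped. The members with the lowest GC were Psmd10 at 25.0%, Psmc6 at 29.0% and Psma2 at 32.0%. In livers 3 to 6 Psmc6 and Psma2 lay within the range of the other 26 livers. Psmd10 overlapped that range and reached above it, at 206 to 233 against 158 to 222. Soy-20% + SAA livers 1 and 2, on the same diet, had GC slopes of -0.027 and -0.030. Their counts were 209 and 169 for Psmg1 and 359 and 350.0 for Psmd5. What gave the levels of livers 3 to 6 was not tested.

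**Figure D5:**
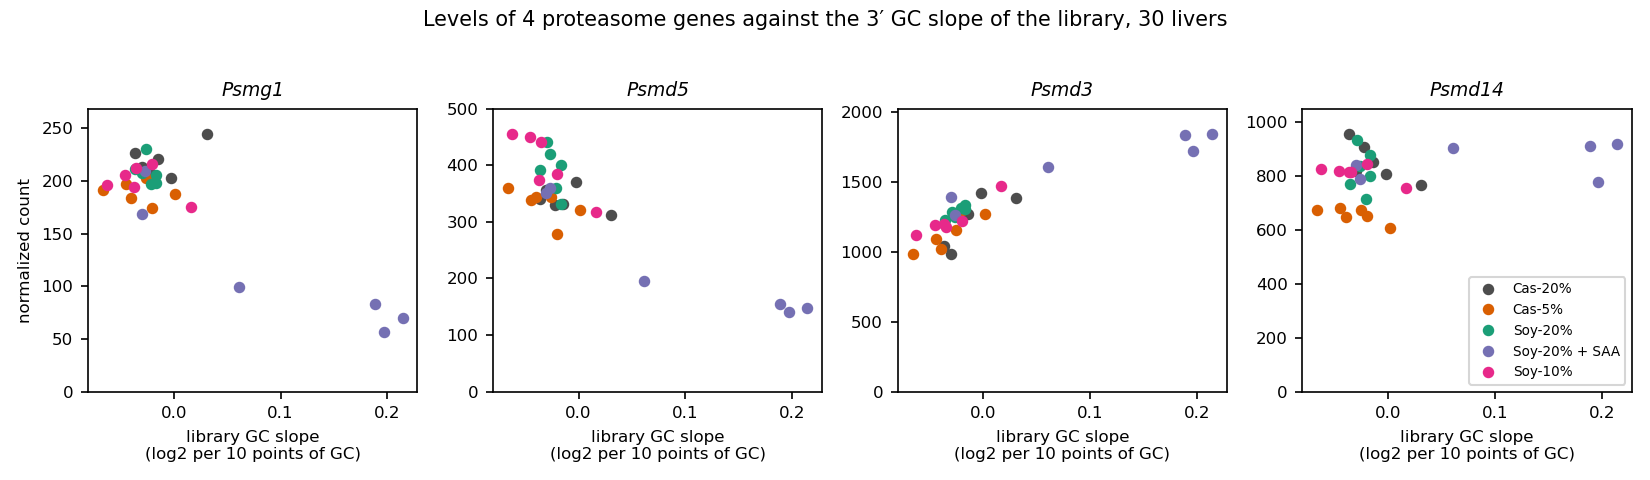
Normalized counts of Psmg1, Psmd5, Psmd3 and Psmd14 in each liver against the GC slope of its library (log2 per 10 points of GC), coloured by diet. The 4 Soy-20% + SAA livers with slopes of 0.061 to 0.21 hold the lowest Psmg1 and Psmd5 and the highest Psmd3 counts, while their Psmd14 counts lie among those of the other livers.

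Against the soy diet without added amino acids, few genes of any kind passed. In Soy-10% against Soy-20% livers edgeR called 0 of 47 members, beside 0.866% of all genes, so that a count of 0 says nothing particular of the members. DESeq2 also called 0 (beside 1.92%). With edgeR 1 member, Psmb9, had an unadjusted p under 0.05, and with DESeq2 3 members did. Psmb9 ran from 228 to 324 in Soy-10% and from 239 to 412 in Soy-20% livers, and its log2 fold change was -0.27 ± 0.12 (edgeR adjusted p = 0.35). Psmd14 averaged 811 ± 30.7 and 821 ± 76.9 (SD, n = 6), with -0.02 ± 0.06. The median size of change was 0.040 over the members and 0.095 over all genes, and no member reached 0.5. In Soy-20% against Soy-20% + SAA livers edgeR called 0 of 46 members beside 0.00838% of all genes, with 18 members at an unadjusted p under 0.05, while DESeq2 called 9 members beside 7.42% of genes. Leaving out Soy-20% + SAA liver 1 gave 13 members with edgeR, beside 13.3% of all genes, and leaving out liver 2 gave 11, beside 9.27%. Without Soy-20% + SAA livers 3 to 6, edgeR called 0 of 48 members and 0 of all genes, and 1 member had an unadjusted p under 0.05.

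The control diets and the restricted diets were also set against each other. Between Cas-20% and Soy-20% + SAA, diets close in sulfur amino acids, 1 of 47 members passed (2.13% against 2.43% of all genes). It was Psmb2, a beta subunit, at 342 to 467 in Cas-20% and 223 to 333 in Soy-20% + SAA livers, with no overlap and a log2 fold change of 0.53 ± 0.11 (edgeR adjusted p = 0.038). Psmb2 and Psma7, which lay wholly lower in Cas-20% livers but did not pass, were the 2 members without overlap, beside 2.69% of all genes. Psmb2 did not pass without livers 3 to 6 (0.37, beside 0.0240% of all genes called). The count was 13 without Soy-20% + SAA liver 1 (15.1% of all genes) or liver 2 (10.3%) and 0 without any other single liver (0.0748 to 0.655%).

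Between the restricted diets, the members sat lower in Cas-5% than in Soy-10% livers. Of 47 members 44 had a negative log2 fold change, with a median of -0.11 against 0.01 over all genes, and 4 passed, all lower (8.51% against 10.7% of all genes called, 6.14% lower). They were Psmd14, Psmb7, Psma7 and Psmb3. Scaled by library totals alone, 31 members were negative and 1 passed, beside 1574 of 12041 genes. Psmd14 ran from 604 to 681 in Cas-5% and from 753 to 844 in Soy-10% livers, with no overlap and -0.29 ± 0.05 (edgeR adjusted p = 0.0017), and it passed in each of 20 alternatives, with adjusted p of up to 0.017. Psmb7, whose 3′ end overlaps Nek6, ran from 1072 to 1236 against 1315 to 1457 (-0.24 ± 0.06, edgeR adjusted p = 0.011). The alpha subunit Psma7 gave -0.24 ± 0.07 (edgeR adjusted p = 0.028) with overlapping groups, and Psmb3 gave -0.17 ± 0.05 (0.043) without overlap. Together with Psmb4, which did not pass, 4 members lay wholly lower, beside 4.09% of all genes. Single livers moved the count to 2, which held without Cas-5% liver 2, 3 or 4 or Soy-10% liver 1, 2, 5 or 6. In those fits 8.10 to 9.07% of all genes were called. Psmd14 and Psmb7 passed in all 12 fits. Stellate markers were higher in Cas-5% livers for 4 of 5 genes, Col1a1, Col3a1, Dcn and Reln, with sums of 3776 to 5133 against 3437 to 4003 in Soy-10% livers. Serpina1c of hepatocytes (1 of 6) and Alas2 of erythroid cells (1 of 5) were lower, no leukocyte, Kupffer, endothelial or cholangiocyte marker passed, and their part in the result was not tested. Pomp, the maturation factor of the core, was also lower in Cas-5% livers (-0.39 ± 0.08, edgeR adjusted p = 0.0025).

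The casein effect (Cas-5% minus Cas-20%) was then tested against the soy effect (Soy-10% minus Soy-20% + SAA). The difference passed for 7 of 48 members, all with a lower value under casein (14.6% against 8.69% of all genes called, 5.49% lower). Psmb9 gave -1.41 ± 0.37 (edgeR adjusted p = 0.020), Psmg1 -1.01 ± 0.27 (0.023), Psmd5 -0.88 ± 0.25 (0.030), Psmb7 -0.49 ± 0.16 (0.048), Psme2 -0.47 ± 0.13 (0.030), Psmg2 -0.37 ± 0.11 (0.037) and Psmd14 -0.29 ± 0.09 (0.037). For Psmb9 the casein effect was -0.89 and the soy effect 0.52 ± 0.30, of which the second did not pass and turned to -0.28 ± 0.14 without Soy-20% + SAA livers 3 to 6. For Psmd14 they were -0.36 and -0.08 ± 0.06.

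The calls of the difference depended on the soy control. Without Soy-20% + SAA livers 3 to 6, when 2 control livers remained, none of the 7 passed (2.27% of all genes did). Psmd14 was then at -0.36 ± 0.10 (adjusted p = 0.058, over a range of 0.014 to 0.21 in all alternatives), no smaller than with all livers. The others shrank, to -0.61 for Psmb9, -0.27 for Psmg1, -0.26 for Psmg2, -0.23 for Psme2, -0.21 for Psmd5 and -0.14 for Psmb7. With the GC slope as a covariate none of the 7 passed (4.32%). With Soy-20% in place of Soy-20% + SAA, 2 members passed beside 5.99% of genes: Psmd14 at -0.35 ± 0.09 and Psmb3, which the first control had not called. Without Soy-20% + SAA liver 1 the count was 12 (15.4% of all genes) and without Cas-5% liver 4 it was 2 (5.98%). It was 3 without Cas-20% liver 6 or Soy-20% + SAA liver 4 or 6, beside 5.70 to 6.26% of all genes. It was 4 without Cas-20% liver 5, Cas-5% liver 2, 3 or 6, Soy-20% + SAA liver 5 or Soy-10% liver 3 or 6, beside 6.01 to 6.77%. Psmb9 and Psmg1 passed in all 24 fits without 1 liver.

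Over all 5 diets together, 28 of 48 members differed (58.3% against 43.4% of all 12561 genes). By class these were 4 of 8 alpha, 6 of 7 beta, 1 of 3 immunoproteasome, 7 of 9 base, 5 of 8 lid and 4 of 7 chaperone genes, and 1 of 6 activators and inhibitor. Psmd14 had the smallest adjusted p (edgeR, 0.00010). Without livers 3 to 6 the count was 11 (26.2% of all genes) and with the GC covariate 14 (28.2%). Without the whole Soy-20% + SAA diet it was 13, for which no share of all genes is given. On the mean log2 level of the 46 members above a mean of 10 counts, centred over 30 livers, the diets had medians of -0.092 in Cas-5%, -0.001 in Soy-20% + SAA, 0.023 in Cas-20%, 0.039 in Soy-10% and 0.057 in Soy-20%. Neighbours in this order overlapped, and Cas-5% livers (-0.13 to -0.022) lay wholly below Soy-10% livers (0.024 to 0.058).

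Most activators and the inhibitor kept narrow ranges of group means. Psme4 averaged 1033 to 1093 normalized counts over the 5 diets, Psme1 1100.0 to 1169, Psme3 339 to 395 and Psmf1 324 to 379, and none of these 4 passed in any comparison with the main scaling. With library totals as the scaling, Psme1, Psme2 and Psme4 were called higher in Cas-5% than in Cas-20% livers, beside 3849 of all 12076 genes. In the edgeR comparison of 5 diets, the adjusted p of Psme4, Psme1, Psme3 and Psmf1 ran from 0.055 for Psme3 to 0.80 for Psme1. Psme2, described above, was the exception.

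Genes around the proteasome were counted from lists chosen with earlier results of these data known. In the casein comparison, where 11.6% of all genes were called higher and 13.3% lower, 3 of 6 ubiquitin and E1 genes were higher: Rps27a, a fusion of ubiquitin with a ribosomal protein (log2 0.67 ± 0.12, edgeR adjusted p = 0.00051), the E1 enzyme Uba6 (0.33 ± 0.08, 0.0036) and the polyubiquitin gene Ubb (0.24 ± 0.07, 0.020). Of 5 ubiquitin shuttles 2 were higher, Ubqln2 (0.37 ± 0.10, 0.0090) and Ubqln4 (0.27 ± 0.08, 0.026). These 5 also passed under each scaling tried, library totals included. The lists summed did not follow them: the ubiquitin and E1 genes had a median sum of 11610 normalized counts in Cas-5% and 12237 in Cas-20% livers. For the shuttles the median sums were 3562 and 3665. Of 8 ligases and deubiquitinases 1 was lower, Otub1 (-0.29 ± 0.09, 0.025), which did not pass under library totals (-0.11). None of 10 genes for the control of the proteasome and for substrate extraction passed, and none of 6 partners of the cap and core with other symbols. With library totals as the scaling, 3 of these 10, 2 of these 6 and 3 of the 8 ligases and deubiquitinases were higher. Under that scaling 3849 of all 12076 genes were called higher, so these counts say nothing particular of the lists.

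In Soy-10% against Soy-20% + SAA livers, Nfe2l1 was higher (0.30 ± 0.09, edgeR adjusted p = 0.032) and Vcp, the ATPase that extracts substrates from membranes, lower (-0.32 ± 0.07, 0.0092), or 2 of 10 in the control list. Ubqln2 was higher at 1.23 ± 0.23 (edgeR adjusted p = 0.0040), 1 of 5 shuttles. None of these 3 passed without Soy-20% + SAA livers 3 to 6 (0.16, -0.14 and 0.53). No gene of the ubiquitin, ligase, antigen-processing or partner lists passed. Among markers, Marco of Kupffer cells was higher (1 of 6), Apoa1 of hepatocytes lower (1 of 6) and Sox9 of cholangiocytes lower (the 1 tested of 4), and no leukocyte, endothelial, stellate or erythroid marker passed. The difference between the casein and the soy effect passed for Ubb (0.40 ± 0.10, edgeR adjusted p = 0.020), Uba6 (0.38 ± 0.11, 0.041), Ubqln2 (-0.86 ± 0.26, 0.037) and B2m (-0.53 ± 0.13, 0.014), and for none of these 4 without Soy-20% + SAA livers 3 to 6.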

How the data were processed

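Livers from 6 mice per diet were profiled by QuantSeq 3′ mRNA-seq. The deposited tables hold whole-number counts per gene, made by the authors with the Lexogen QuantSeq pipeline on GRCm38/mm10; the counting program, its strand setting and its use of reads with several matches are not given in the sources used here. R 4.0.3 and DESeq2 1.30 are named in the submitters' processing notes.

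The counts were tested with edgeR 4.0.16 (R 4.3.3; quasi-likelihood test, TMM scaling, filterByExpr, livers of the comparison only), with Benjamini-Hochberg adjustment over all genes tested and a threshold of 0.05. The SE was the log2 fold change divided by the square root of F. Normalized counts are the signal values deposited by the authors, counts divided by DESeq2 size factors. The code was tested on simulated data. Alternatives were DESeq2 1.42.0, its size factors, library totals (chosen after seeing the data), other filters, a replicate block, the library's GC slope (3′ 200 bases) as a covariate, 1 fit over 30 livers, and fits without 1 liver or without Soy-20% + SAA livers 3 to 6. Libraries of a diet differed by at least 6.12 chi-square units per gene, so none was a copy of another from its own diet. Libraries of different diets were not compared in this way. The mice were separate animals.

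Members and lists were chosen with earlier results of these data known. The genes named were the catalytic and immunoproteasome beta subunits, Psme1 to Psme4, Psmf1, the highest and lowest fold change of each class in the casein and soy comparisons, members called in both or in their difference, the smallest adjusted p of each comparison, and up to 3 genes of each other list; further genes, such as Psmb3, Psmd2, Psmd13, Psma7, Psmc3, Psmd4 and Psmb4, were named after their values were seen.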

Additional observations from a re-analysis of the deposited data

Results flagged for a closer look

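In 13 of 145 sets of 6 livers (29 named genes in 5 diets) 1 liver lay far from the others of its diet by Dixon's test of the gap at the 95% level, which chance gives in about 5% of sets. In Cas-5% livers, Psma6 reached 1009.6 normalized counts in liver 6 (774 to 856 in the others), Psmb2 479 in liver 1 (236 to 322), Psmb5 284 in liver 1 (222 to 243) and Psmd9 373 in liver 3 (250.5 to 286). In Cas-20% livers, Psmb8 reached 658 in liver 2 (333 to 450.1), Psmd12 825 in liver 1 (706 to 749.5) and Psmg4 230.3 in liver 6 (163 to 180.3), and Psmc6 was low in liver 2 at 656 (828 to 891). In the soy diets, Psmb5 reached 269 in Soy-20% + SAA liver 1 (203 to 227), Psmc5 649.6 in Soy-20% liver 6 (520.5 to 562) and Psmg4 206 in Soy-10% liver 6 (161 to 178). Soy-10% liver 4, which held the acinar transcripts, was high for Psmd3 at 1473 (1122 to 1224) and low for Psmd14 at 753 (813 to 844).

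The effect of casein restriction differed from that of soy restriction, by edgeR's test of the difference, for 7 members on the log2 scale: Psmb9 (-1.41), Psmg1 (-1.01), Psmd5 (-0.88), Psmb7 (-0.49), Psme2 (-0.47), Psmg2 (-0.37) and Psmd14 (-0.29). Without Soy-20% + SAA livers 3 to 6 none of the 7 passed, and 6 of them shrank, while Psmd14 was at -0.36.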

How the results depend on the processing

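Of the 28 values called for members, DESeq2 kept 28 and DESeq2's size factors 27, while library totals kept 11, the GC covariate 8 and leaving out Soy-20% + SAA livers 3 to 6 none of 16. In fits without 1 liver 285 of 420 values kept their call and 135 lost it. The counts of members called without 1 liver ran from 5 to 9 in the casein comparison, 3 to 20 in Soy-10% against Soy-20% + SAA, 0 to 0 in Soy-10% against Soy-20%, 0 to 13 in Soy-20% against Soy-20% + SAA, 0 to 13 in Cas-20% against Soy-20% + SAA, 2 to 4 in Cas-5% against Soy-10% and 2 to 12 in the difference; these fits were not run for the 5 diets. In the fits without 1 liver, 21.4 to 23.6% of all genes were called in the casein comparison. In the same order the others had 10.1 to 25.8%, 0.417 to 1.22%, 0.00 to 13.3%, 0.0748 to 15.1%, 8.10 to 10.8% and 5.70 to 15.4%. With the replicate number as a block the counts of members were 6, 7, 0, 0, 0, 4 and 9 in that order. Beside them 2656, 2014, 80, 1, 141, 1370 and 1272 of all genes were called. The correlation of same-numbered livers was -0.0865 to 0.0732 between the casein diets and at most 0.24 between any diets (Cas-5% and Soy-20% + SAA, 4 of 6 pairs over 0.1). In no pair of diets did all 6 exceed 0.1, so the numbers were not taken to pair the livers.

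One fit over 30 livers gave 17 members in Soy-10% against Soy-20% + SAA, 14 in Soy-20% against Soy-20% + SAA and 17 in Cas-20% against Soy-20% + SAA. Beside them 3077, 1793 and 2331 of all genes were called, against 2035, 1 and 291 in the main fits. DESeq2 gave 9 in each of the last 2 comparisons, beside 885 and 1155 of all genes, and 8 in Cas-5% against Soy-10%, beside 1456. Library totals gave 3 in Cas-20% against Soy-20% + SAA, beside 425 of all genes, and 1 in Cas-5% against Soy-10%, beside 1574. The GC covariate gave 0 in both comparisons with Soy-20% + SAA that had calls and in the difference, beside 355, 5 and 542 of all genes. Leaving out livers 3 to 6 also gave 0 in each, beside 317, 3 and 296. Over the 5 diets these settings gave 14 and 11, beside 28.2% and 26.2% of all genes. Leaving out the whole diet gave 13 there, for which no share of all genes is given. A fold of at least 1 on the log2 scale as a further condition left 0 in each 2-diet comparison with calls and 2 in the difference. When Soy-20% replaced Soy-20% + SAA, 2 members differed between casein and soy, and the value of Psme2 reversed to 0.0018 (adjusted p = 0.996, over 0.00957 to 0.996 in all alternatives). The cause of these shifts was not tested. Low counts limit Psma8 and Psme2b: Psme2b was called (0.88) in Soy-10% against Soy-20% + SAA in the 1 fit over 30 livers and was not tested in the main one.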
